A study of Mus musculus with 130 samples.

Results

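The genes described are 7 genes of red cell formation measured in mouse liver: the adult beta globin genes Hbb-bs and Hbb-bt, the adult alpha globin genes Hba-a1 and Hba-a2, Alas2, Slc4a1 and Epor. They were named one by one, with no threshold on their values but with earlier results of these data known, and make up 7 of the 35274 genes in the table of the diet study and 7 of the 35711 genes in the table of the strain panel. All 7 were found in both tables and all 7 passed the filter on low counts in every comparison.

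Haemoglobin carries oxygen in red cells and is built from alpha and beta globin chains, each holding a heme group with an iron atom. Alas2 encodes the erythroid form of 5-aminolevulinate synthase, the first and rate-limiting enzyme of heme synthesis, and the liver's own supply of heme uses its housekeeping counterpart Alas1. Slc4a1 encodes the anion exchanger that ties the red cell membrane to its skeleton and appears late in erythroid maturation. Epor encodes the receptor through which the hormone erythropoietin, the product of Epo, keeps erythroid progenitors alive. The fetal liver is the main site of red cell formation before birth, whereas in adult mice that role lies with bone marrow and spleen. Circulating reticulocytes, the youngest red cells in blood, still contain globin mRNA, so an adult liver sample can hold globin transcripts through its blood.

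Whole-tissue RNA of a large-lobe liver sample was sequenced for 130 male mice with a stranded mRNA kit. The diet study used C57BL/6J mice, the most common inbred laboratory strain, in 5 groups of 3: chow, a diet with 50 ppm iron, a diet with 500 ppm iron, a diet with 2% carbonyl iron (20000 ppm) and the same 2% diet with cellulose as its fibre. The panel held 115 libraries of 114 inbred strains kept on chow for 4 weeks and then on the 2% carbonyl iron diet for 6 weeks. The age of the mice and the time on each diet in the diet study are not given in the sources used here. Of the panel strains, 56 were BXD lines, derived from C57BL/6J and DBA/2J, 20 were AXB/BXA lines, derived from A/J and C57BL/6J, 4 were BXH lines, derived from C57BL/6J and C3H/HeJ, and 3 were CXB lines. The other 31 were classical inbred strains. Each strain was represented by 1 mouse except 129X1/SvJ with 2, so in the panel a strain and its mouse cannot be told apart, and no panel strain was measured on another diet.

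Libraries summed to between 10420708 and 20357169 counts for the diets and between 9407880 and 20572879 counts for the strains. CPM are counts scaled to a library total of 1000000, with TMM factors within each study, and TPM are the authors' transcript abundances, which are also scaled by length. The library labelled 500 ppm replicate 2 and the panel library labelled BXD19/TyJ held the same reads within sampling noise. Among 8385 pairs of libraries compared over 12092 genes, theirs had the highest correlation, 0.994. The median squared difference of their counts was 0.0119 of that expected from counting alone, against 2.71 or more in the next 4 most similar pairs. Its label as a C57BL/6J mouse goes against its globin copies: the Hba-a2 share of alpha globin TPM was 9.89% in it and 31.97 to 45.4% in the other 12 diet libraries with at least 100 alpha globin counts. Results that rest on this library are given with and without it, except the spread within diet groups, which leaves it out. The panel library labelled BXD65/RwwJ has low Y-linked transcripts for a male and was left out in a further fit. Markers of hepatocytes summed to 57612 CPM or more in every library, and the pancreatic markers Cpa1, Pnlip and Prss2 were at 0 counts in all 15 diet libraries. In the panel, the 6 exocrine pancreas markers summed to up to 102 CPM among classical inbred libraries and up to 11.1 CPM among AXB/BXA libraries. The medians there were 1.09 and 0.730 CPM, so some panel samples held pancreatic transcripts. In whole liver, fewer cells of a type and less RNA per cell cannot be told apart.

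Both globin pairs are near copies of each other, which limits how reads can be divided between them. Hba-a1 (chromosome 11, 32283511 to 32284465, plus strand) and Hba-a2 (chromosome 11, 32296489 to 32297298, plus strand) have coding sequences of 426 bases that differ at 1 base, C381T, counted from the A of the start codon. Hbb-bs (chromosome 7, 103826534 to 103828096, minus strand) and Hbb-bt (chromosome 7, 103812524 to 103813996, minus strand) have coding sequences of 441 bases that also differ at 1 base, C417T. The 29 bases around each difference are shown 5′ to 3′ on the coding strand, with the differing base in capitals, because reads that do not cross these bases or the untranslated ends fit both copies. Coordinates are those of GENCODE M21 on GRCm38, the assembly also called mm10.
Hba-a1, chr11:32284329-32284357: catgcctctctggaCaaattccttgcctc
Hba-a2, chr11:32297146-32297174: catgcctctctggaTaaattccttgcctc
Hbb-bs, chr7:103826678-103826706: gtggctggagtggcCgctgccctggctca
Hbb-bt, chr7:103812669-103812697: gtggctggagtggcTgctgccctggctca

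The other members are single genes: Alas2 on chromosome X (150547375 to 150570638, plus strand), Slc4a1 on chromosome 11 (102348824 to 102366203, minus strand) and Epor on chromosome 9 (21958897 to 21963506, minus strand). The leader of the Alas2 mRNA is known for an iron-responsive element, a stem-loop whose loop binds iron regulatory proteins that hold back translation when iron is scarce. In the 126-base leader of the GENCODE transcript, the loop letters CAGTGC began at position -31 from the start codon. The 30 bases around them cross an exon junction between positions 150547458 and 150552150. They are shown with those letters in capitals to describe the gene. The element acts on translation, which mRNA levels do not measure, so its part in the change of Alas2 with diet was not tested. The same letters were found in the last 126 bases of 1414 of 33469 leaders at least that long, or 4.22%.
Alas2 leader: ttggttcgtcctCAGTGCagggcaacagga

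Promoters of the members are shown because the globin genes rose together on 2% iron, with the GATA letters AGATAA or TGATAA, the CACCC box, CCAAT and TATAA in capitals. Reverse complements of these letters, for matches on the other strand, are in capitals too. GATA letters are those bound by the erythroid factor GATA1, and CACCC those bound by its partner KLF1. RefSeq sequences on GRCm38.p6 were matched for 6 of the 7 members by symbol, and Slc4a1 was not among them. Each window is the 250 bases before the RefSeq start of transcription, which can differ from the GENCODE gene bounds. The Hba-a2 window (chr11:32296242-32296491) repeats 247 of the 250 bases of the Hba-a1 window without a difference and is not printed.
Hbb-bs, chr7:103827929-103828178, minus strand: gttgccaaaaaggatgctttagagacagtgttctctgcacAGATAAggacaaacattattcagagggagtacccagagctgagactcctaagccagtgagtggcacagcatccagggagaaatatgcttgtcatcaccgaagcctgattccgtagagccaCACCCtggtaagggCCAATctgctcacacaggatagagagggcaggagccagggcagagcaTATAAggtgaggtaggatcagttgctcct
Hbb-bt, chr7:103813924-103814173, minus strand: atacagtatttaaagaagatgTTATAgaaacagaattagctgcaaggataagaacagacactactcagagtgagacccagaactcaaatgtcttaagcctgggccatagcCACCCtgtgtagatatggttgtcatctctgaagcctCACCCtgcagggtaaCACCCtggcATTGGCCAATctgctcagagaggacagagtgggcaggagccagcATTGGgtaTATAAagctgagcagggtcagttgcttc
Hba-a1, chr11:32283422-32283671, plus strand: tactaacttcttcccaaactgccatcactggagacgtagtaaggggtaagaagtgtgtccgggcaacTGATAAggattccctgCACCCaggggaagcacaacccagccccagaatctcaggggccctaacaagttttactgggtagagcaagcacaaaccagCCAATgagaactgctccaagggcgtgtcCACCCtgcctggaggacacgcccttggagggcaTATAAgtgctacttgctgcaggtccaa
Alas2, chrX:150547167-150547416, plus strand: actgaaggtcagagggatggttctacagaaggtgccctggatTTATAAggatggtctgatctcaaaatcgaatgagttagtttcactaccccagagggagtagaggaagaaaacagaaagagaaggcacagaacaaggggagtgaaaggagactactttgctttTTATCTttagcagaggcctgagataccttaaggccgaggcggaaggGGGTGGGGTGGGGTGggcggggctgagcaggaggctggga
Epor, chr9:21963577-21963826, minus strand: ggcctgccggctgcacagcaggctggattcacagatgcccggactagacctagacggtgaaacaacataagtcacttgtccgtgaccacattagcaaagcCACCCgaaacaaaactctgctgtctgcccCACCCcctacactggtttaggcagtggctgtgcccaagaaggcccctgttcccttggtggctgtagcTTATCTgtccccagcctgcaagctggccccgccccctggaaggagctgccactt

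A match to AGATAA or TGATAA was found in 5 of the 6 windows and in 16.6% of 32851 promoter windows of that length. Hbb-bt was the window with no match, which says only that those letters were not in it. CACCC was found in all 6 windows and in 52% of all windows. CCAAT stood in the 4 globin windows and in 33.8% of all windows, and TATAA in the 4 globin windows and Alas2 and in 22.8% of all windows. In Hbb-bt a CCAAT directly followed its reverse complement, and in Alas2 a TATAA overlapped its own. These matches describe letters, not binding.

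The main dietary comparison asked how 2% carbonyl iron changed these genes against 50 ppm iron. The 4 globin genes rose between 11.7-fold and 14.3-fold, Slc4a1 rose and Alas2 fell 2.85-fold, while Epor did not pass the test. Of the 7 members, 6 were called, 5 higher and 1 lower, at an adjusted p under 0.05 by the quasi-likelihood test of edgeR with Benjamini-Hochberg adjustment over 13560 genes. Over all genes tested 15.7% were called, 8.52% higher and 7.17% lower. The median log2 change was 3.66 over the members and 0.01 over all genes. Without the library labelled 500 ppm replicate 2, which enters the shared estimate of the spread, 6 members were called as well, with 16.9% of all genes.

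Hbb-bs, the more abundant beta globin gene, stood at 129.95, 137 and 92.6 CPM on 2% iron and at 6.45, 13.99 and 5.10 CPM on 50 ppm. Hba-a1, the more abundant alpha globin gene, stood at 150.3, 178 and 114 CPM against 7.13, 20.0 and 8.07 CPM. In both genes every mouse on 2% iron lay far above every mouse on 50 ppm. Hbb-bs rose by a log2 change of 3.83 (SE 0.71, adjusted p 0.00363) and Hba-a1 by 3.66 (SE 0.79, adjusted p 0.00761). Their less abundant copies also rose. Hbb-bt averaged 4.74 ± 2.87 CPM on 50 ppm and 54.5 ± 8.67 CPM on 2% iron (SD, n = 3), and its log2 change in edgeR was 3.55 with an adjusted p of 0.00666. Hba-a2 averaged 4.81 ± 2.19 and 64.1 ± 13.3 CPM, and its log2 change was 3.75 with an adjusted p of 0.000489. The sum of the 4 genes was 414, 443 and 300.7 CPM on 2% iron and 22.3, 48.9 and 18.1 CPM on 50 ppm. Even on 2% iron this sum was at most 0.0457% of a library's counts.

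Alas2 moved the other way. It stood at 17.3, 28.03 and 18.6 CPM on 2% iron and at 86.4, 46.4 and 49.4 CPM on 50 ppm, with no overlap. The log2 change was -1.51 (SE 0.24, adjusted p 0.0017), and the call held in all 25 alternatives. This direction was opposite to that of the globin genes.

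Slc4a1 was close to the detection limit without iron loading. It had 2, 4 and 1 counts in the 50 ppm mice and 77, 31 and 33 counts in the 2% mice, or 6.36, 2.73 and 2.81 CPM. Every 2% mouse lay above every 50 ppm mouse. The ratio of the summed counts per library total was 19.4, with an exact 95% interval of 9.15 to 49.01 for counting error only. The log2 change in edgeR was 4.15 (SE 1.15, adjusted p 0.0261). This call was lost in 7 of 24 alternatives, in limma on TPM and without 2% replicate 1 or any of the 50 ppm mice, with adjusted p-values from 0.0556 to 0.197.

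Epor, the receptor gene, had 22, 15 and 22 counts on 2% iron and 7, 6 and 7 on 50 ppm. The groups, at 1.32 to 1.87 and 0.576 to 0.674 CPM, did not overlap. The log2 change of 1.44 (SE 0.49) had an adjusted p of 0.0604 and was not called. Over its 24 alternatives the adjusted p ran from 0.0195 to 0.172.

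**Figure D1:**
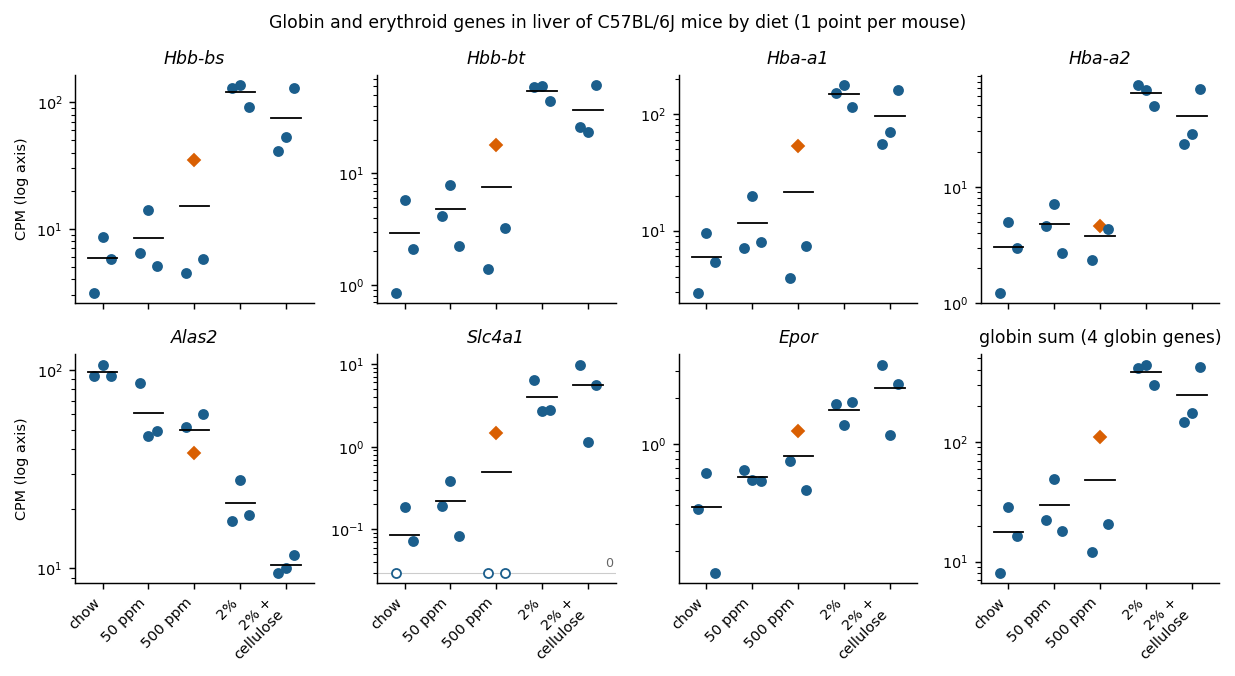
CPM of the 7 members and of the summed globin genes in each C57BL/6J mouse by diet, on log axes. Lines are group means, open circles are counts of 0 and the orange diamond is the library that also appears under a panel strain. The globin sum ran from 300.7 to 443 CPM on 2% iron and Alas2 from 93.3 to 106 CPM on chow, where it was highest.

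The ligand of that receptor was measured at the edge of detection. Epo, which adult liver makes at low levels beside the kidney, had 0 counts in all chow and 50 ppm mice and in 500 ppm replicates 1 and 3, and 3 counts in the library labelled 500 ppm replicate 2. On 2% iron it had 35, 6 and 22 counts, and with cellulose 26, 41 and 8. Against a limit of 3 counts over the group, Epo was at least 20.2-fold higher on 2% iron than on 50 ppm and at least 22.9-fold higher than on chow. In edgeR its adjusted p against 50 ppm was 0.0145, and it was called in all 23 alternatives.

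Further erythroid genes were read from a list of 45. Of these, 23 passed the filter on low counts in the diet study, none was called higher in 2% iron against 50 ppm and 3 were called lower, with 10 at an unadjusted p under 0.05. The 3 were Alad, the enzyme after Alas in heme synthesis, at a log2 change of -0.52, Fam210b, a mitochondrial protein of erythroid cells, at -0.58, and Slc25a38, the mitochondrial glycine carrier for heme synthesis, at -0.34. Over all 13560 genes tested, 8.52% were called higher, 7.17% were called lower and 4089 had an unadjusted p under 0.05. The median log2 change of the tested list genes was -0.04. The filter leaves out genes near 0, so these counts say little about list genes at that level. Tested genes included ones well detected on 50 ppm, such as Fech at 143, Fam210b at 134 and Alad at 71.7 CPM. Near 0, Trim10 averaged 0 CPM on 50 ppm and 0.391 CPM on 2% iron, Hemgn 0.0321 and 0.278 CPM, and Rhag 0.303 and 0.308 CPM. Over 25 alternatives between 1 and 6 list genes were called. Without the library labelled 500 ppm replicate 2, when 29 list genes passed the filter, 1 was called higher and 4 lower. Of 14 genes of erythropoietin signalling 12 were tested: Epo and the survival gene Bcl2l1, at 0.59, were called higher, the kinase gene Pim1 was called lower at -1.56, and the median was 0.13.

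**Figure D2:**
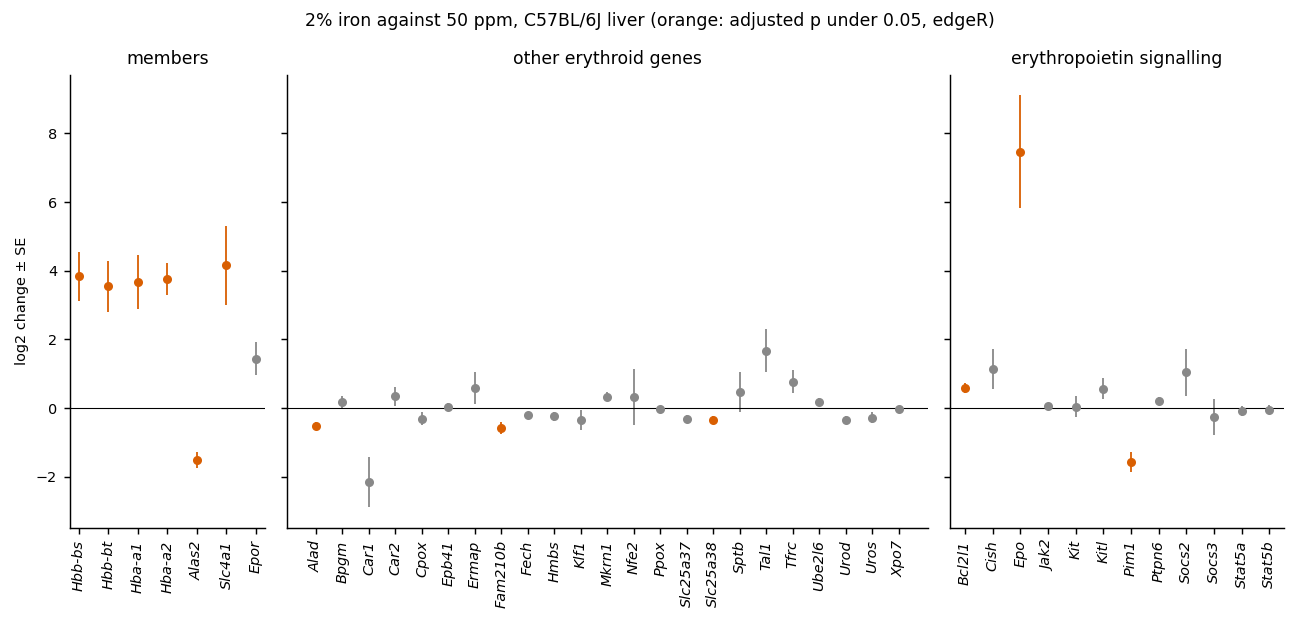
Log2 change with its standard error in 2% iron against 50 ppm for the 7 members, the 23 tested genes of the erythroid list and the 12 tested genes of erythropoietin signalling. Orange points have an adjusted p under 0.05 in edgeR: 6 members, 3 erythroid list genes and 3 signalling genes. The value of Epo, 7.47, comes from a group at 0 counts and is no bound.

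Markers of other blood and immune cells were read in the same comparison, where 8.52% of all genes tested were called higher. Of 12 Kupffer cell and macrophage markers 12 were called higher, and their sum was 161 to 260.0 CPM on 50 ppm and 633 to 685 CPM on 2% iron. The 7 myeloid precursor markers summed to 0.291 to 0.674 CPM against 2.03 to 7.85 CPM, with Ctsg and Ltf at 0 counts in the 50 ppm mice, and of 4 tested none was called, with 1 at an unadjusted p under 0.05. The 7 neutrophil markers summed to 3.08 to 4.69 CPM against 10.05 to 17.8 CPM, and 1 of 4 tested was called higher. The 8 lymphocyte markers summed to 3.47 to 5.05 CPM against 3.66 to 8.67 CPM, and 0 of 5 tested were called by edgeR, with 0 at an unadjusted p under 0.05. The 6 megakaryocyte and platelet markers summed to 1.83 to 2.33 CPM against 5.73 to 16.1 CPM, with Gp1bb, Gp9 and Treml1 at 0 counts on 50 ppm, and 1 of 4 tested was called higher. The 8 proliferation markers summed to 18.8 to 23.4 CPM against 27.8 to 46.3 CPM, and 3 of 7 tested were called higher. The 7 erythroid markers that are not members, among them Ermap, Klf1, Gata1, Hemgn and Rhag, summed to 5.43 to 5.63 CPM on 50 ppm and 6.08 to 6.86 CPM on 2% iron. Of these, the erythroid transcription factor gene Gata1 was at 0 counts in all 50 ppm and chow mice. On 2% iron it averaged 0.169 CPM with a lowest value of 0. Klf1 averaged 3.49 CPM on 50 ppm and 2.74 CPM on 2% iron, and Rhag 0.303 and 0.308 CPM. Ermap averaged 1.66 and 2.50 CPM and Hemgn 0.0321 and 0.278 CPM, so the markers named here did not all rise. Klf1 and Ermap were the largest of them on 50 ppm and weigh most in the sum. Values of the unnamed markers are not reported here, so this does not describe all 7. The part of these cells in the members' change was not tested.

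The other diets placed these values in order. For the globin sum the group means ran from chow at 17.7 ± 10.5 CPM (SD, n = 3) over 50 ppm at 29.8 ± 16.7, 500 ppm at 47.9 ± 54.6 and 2% iron with cellulose at 247.6 ± 151 to 2% iron at 386 ± 75.3 CPM. Without the library labelled 500 ppm replicate 2 the 500 ppm mean was 16.4 CPM (n = 2), below those of chow and 50 ppm. Neither chow and 50 ppm, nor 50 ppm and 500 ppm, nor the 2 groups on 2% iron passed the test in any globin gene. Alas2 ran the other way, from chow at 97.8 ± 7.51 over 50 ppm at 60.7 ± 22.3, 500 ppm at 50.0 ± 10.9 and 2% iron at 21.3 ± 5.86 to 2% iron with cellulose at 10.4 ± 1.16 CPM. Without the library labelled 500 ppm replicate 2 the 500 ppm mean of Alas2 was 55.8 CPM (n = 2). Per length, in TPM, Alas2 exceeded the sum of the 4 globin genes in 2 of 3 chow mice, 0 of 3 mice on 50 ppm, 1 of 3 on 500 ppm and none of the 6 mice on 2% iron. On chow Alas2 lay at 50.6 to 53.5 TPM and the globin sum at 17.5 to 56.4 TPM, while on 2% iron Alas2 lay at 10.3 to 21.98 TPM and the globin sum at 649.2 to 1046 TPM. The comparisons between diets share mice, so their values stand side by side and are not independent of each other.

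Iron at 500 ppm was next compared with 50 ppm. No member was called and none had an unadjusted p under 0.05, while over all genes 0% were called by edgeR and 428 had an unadjusted p under 0.05. The globin sum was 12.1 CPM in 500 ppm replicate 1, below the 50 ppm mice, 20.8 CPM in replicate 3, among them, and 111 CPM in the library labelled replicate 2, above them. Slc4a1 had 0 counts in replicates 1 and 3 and 30 in that library. Without it the 500 ppm mean of the globin sum was 16.4 ± 6.13 CPM (n = 2), and the log2 change of Hbb-bs turned from 0.87 to -0.71 and that of Hba-a1 from 0.93 to -1.03, neither called. The same library also held 8.15 CPM of myeloid precursor markers and 18.99 CPM of megakaryocyte and platelet markers, against at most 0.505 and 3.03 CPM in its group mates.

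In 2% iron against 500 ppm, 5 members were called, 4 higher and 1 lower, against 11.3% of all genes, 6.59% higher and 4.75% lower. The globin log2 changes were 2.96 for Hbb-bs, 2.79 for Hbb-bt, 2.74 for Hba-a1 and 4.07 for Hba-a2, and Alas2 fell by 1.21 (adjusted p 0.00653). Slc4a1 at 2.77 (adjusted p 0.0677) and Epor at 0.97 (adjusted p 0.181) were not called. Without the library labelled 500 ppm replicate 2, 6 members were called, with 15.9% of all genes, and the globin changes were between 4.25 and 4.69. Slc4a1 was then at least 35.5-fold higher on 2% iron, since both remaining 500 ppm mice had 0 counts. Only 3 members were called without 500 ppm replicate 1 or replicate 3 or in a fit of these 2 groups alone.

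Against chow, all 7 members were called in 2% iron, 6 higher and Alas2 lower, where 22.8% of all genes were called, 11.9% higher and 10.9% lower. The globin log2 changes ran from 4.25 for Hbb-bt to 4.64 for Hba-a1. Slc4a1 had 0, 2 and 1 counts on chow, and the ratio of summed counts was 51.2 (exact 95% interval 17.2 to 251.1). Epor, with 4, 7 and 2 counts on chow, had a ratio of 4.94 (2.68 to 9.82), a log2 change of 2.13 (SE 0.52) and an adjusted p of 0.00941. Alas2 fell by 2.20 (SE 0.25, adjusted p 0.000103). Of the 23 tested erythroid list genes, 4 were called, all lower: Alad at -0.70, Urod, a later heme enzyme, at -0.34, the mitochondrial iron importer Slc25a37 at -0.60 and the carbonic anhydrase gene Car1 at -2.63. Over 25 alternatives between 2 and 7 list genes were called, the 7 in DESeq2 and without 2% iron with cellulose replicate 2.

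Chow, whose iron content the labels do not give, was compared with the 50 ppm diet. No member was called, with 0.391% of all genes called by edgeR, and 1 member, Alas2, had an unadjusted p under 0.05. Alas2 stood at 93.7, 106 and 93.3 CPM on chow and 86.4, 46.4 and 49.4 CPM on 50 ppm, all chow mice above all 50 ppm mice, with a log2 change of 0.69 and an adjusted p of 0.300. Without 50 ppm replicate 1, the mouse at 86.4 CPM, the log2 change was 1.03 and the adjusted p 0.0498. The 4 globin genes had log2 changes from -0.53 to -0.97 with overlapping mice.

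Cellulose in the 2% diet was compared with the 2% diet as such. No member was called by edgeR, against 0.0811% of all genes, and 1 member had an unadjusted p under 0.05. That member was Alas2, at 9.53, 10.04 and 11.7 CPM with cellulose and 17.3, 28.03 and 18.6 CPM without, with no overlap, a log2 change of -1.03 (SE 0.26) and an adjusted p of 0.142. With DESeq2 its adjusted p was 0.0108. Without the library labelled 500 ppm replicate 2, which enters the shared estimate of the spread, its adjusted p in edgeR was 0.0966. In that fit 53 of 13821 genes were called. The globin sum was more uneven with cellulose, at 146, 175 and 421 CPM, and its highest mouse lay among the mice without cellulose. Slc4a1 did not follow the globin genes mouse by mouse: it was 9.85 CPM in the cellulose mouse with a globin sum of 146 CPM and 5.56 CPM in the mouse with 421 CPM.

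Against 50 ppm, the cellulose mice had all 7 members called, 6 higher and Alas2 lower, with 29.7% of all genes called, 15.4% higher and 14.3% lower. Epor rose by a log2 change of 1.90 (SE 0.47, adjusted p 0.00877) and Alas2 fell by 2.54 (SE 0.26, adjusted p 4.45e-05), while the globin genes rose by 2.98 to 3.15. Slc4a1, at 4.63 (adjusted p 0.00775), was not called in limma on TPM in any of 3 settings, with an adjusted p of up to 0.103. In this comparison 8 of the 23 tested erythroid list genes were called. The 4 higher were the progenitor transcription factor gene Tal1 at 2.85, the blood group gene Ermap at 1.69, carbonic anhydrase Car2 at 1.43 and the transferrin receptor gene Tfrc at 0.97. The 4 lower, Alad, Fam210b, Urod and Uros, lay between -0.92 and -0.32, and 3 of them encode heme enzymes. Ermap and Uros are named here after their values were seen. Without the library labelled 500 ppm replicate 2, whose removal lets 29 list genes pass the filter, 10 list genes were called higher and 4 lower, with 30.4% of all genes called. The myeloid precursor markers summed to 3.79 to 57.5 CPM in the cellulose mice, and the erythroid markers that are not members to 6.25 to 17.5 CPM.

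Across the 114 strains on 2% iron the members differed widely. The globin sum ran from 1.10 CPM in BXA12/PgnJ over a median of 161 CPM to 2320 CPM in BTBR T<+> tf/J, a ratio of 2100. C57BL/6J itself stood at 132.7 CPM in the panel. After BTBR T<+> tf/J, the highest strains were LG/J at 1778 CPM, BXD55/RwwJ at 1754, BXD8/TyJ at 1644, BXD24/TyJ-Cep290<rd16>/J at 1531 and NZB/BlNJ at 1474 CPM. The lowest after BXA12/PgnJ were BXD22/TyJ and BXD44/RwwJ at 1.12 CPM each and C58/J at 1.37 CPM, from 11 to 16 counts. High and low strains came from the same families.

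Hbb-bs ran from 0.340 to 785 CPM with a median of 57.3, Hbb-bt from 0 to 257 CPM with a median of 18.1, Hba-a1 from 0.204 to 940.3 CPM with a median of 70.4 and Hba-a2 from 0 to 372.2 CPM with a median of 16.9 CPM. Hbb-bt was at 0 counts in 7 strains and Hba-a2 in 8. Alas2 was detected in every strain, from 0.875 CPM in BALB/cJ over a median of 16.6 to 91.98 CPM in BXD14/TyJ, a ratio of 105. In TPM, Alas2 exceeded the globin sum in 5 of the 115 panel libraries.

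Slc4a1 had 0 counts in 13 strains and fewer than 10 in 54, with a median of 0.820 CPM. It was highest in BTBR T<+> tf/J at 204 CPM, FVB/NJ at 164 and NZB/BlNJ at 124 CPM, and the next strain, BXD42/TyJ, had 48.6 CPM. The same 3 strains led the panel for Epor, at 8.60, 6.72 and 5.02 CPM, against a median of 1.81 CPM and a lowest value of 0.465 CPM in BXA13/PgnJ. Mki67, a gene of dividing cells looked up after these levels were seen, was at 168, 120.4 and 90.3 CPM in them.

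A high globin sum did not go with a fixed level of Slc4a1. Among the 10 strains highest in globin, Slc4a1 per 1000 CPM of globin ran from 5.91 in BXD8/TyJ and 7.32 in BXD55/RwwJ to 84.2 in NZB/BlNJ, 88.1 in BTBR T<+> tf/J and 122.7 in FVB/NJ. High Alas2 was seen at both high and low globin sums: the highest strain, BXD14/TyJ at 91.98 CPM, had a globin sum of 706 CPM, while the next, AXB10/PgnJ at 83.5 CPM and CBA/J at 76.4 CPM, had globin sums of 62.6 CPM each.

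**Figure D3:**
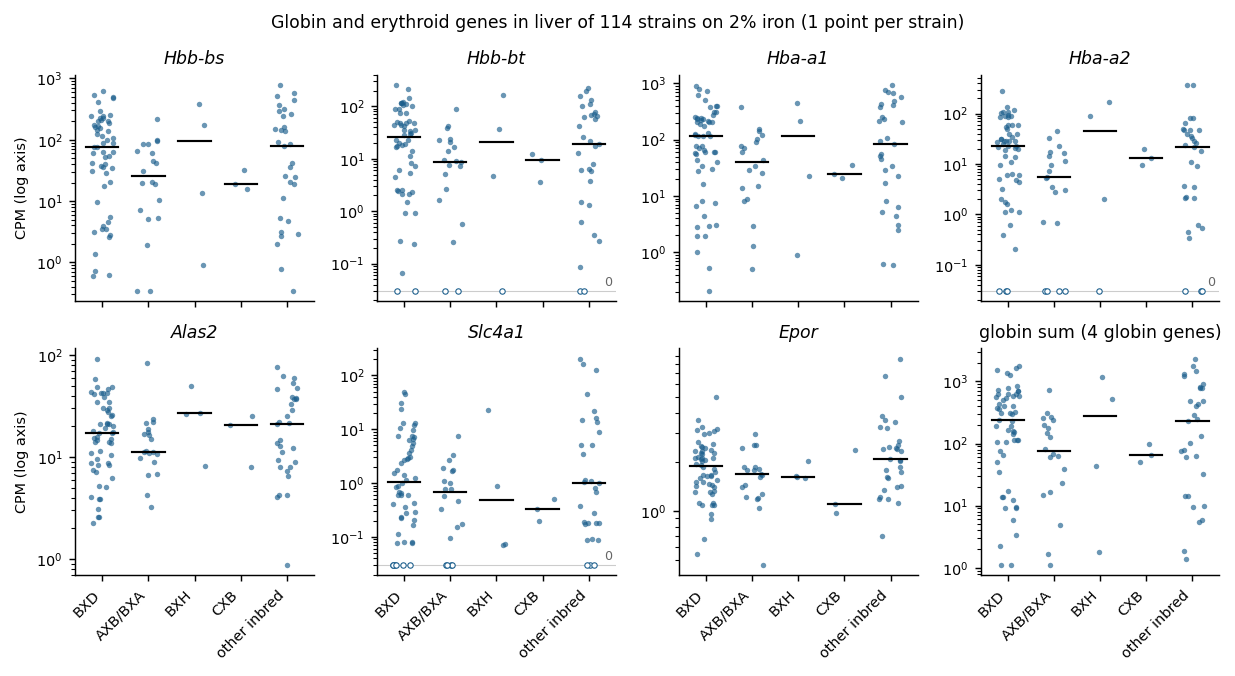
CPM of the 7 members and of the summed globin genes in 114 strains on 2% iron by family, on log axes. Each point is a strain, lines are family medians and open circles are counts of 0. The globin sum spans 1.10 to 2320 CPM and Epor 0.465 to 8.60 CPM.

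How much of this spread lies between mice of 1 strain could be seen in few places. The 2 mice of 129X1/SvJ had globin sums of 18.99 and 473 CPM, a 24.9-fold difference, and Alas2 of 52.2 and 22.6 CPM in the same order. The substrains AXB19/PgnJ, AXB19a/PgnJ and AXB19b/PgnJ had globin sums of 306, 147 and 717 CPM. On the log2 CPM scale, the SD of Hbb-bs was 2.73 between strains and 0.66 within diet groups of C57BL/6J, a ratio of 4.14. The ratio was 3.36 for Hbb-bt, 3.92 for Hba-a1, 4.08 for Hba-a2, 4.04 for Alas2, 2.89 for Slc4a1 and 1.2 for Epor, and its median over 13410 genes was 1.71. Hba-a2 ranked 24 and Hbb-bs ranked 36 of these genes by the SD between strains. The tables of the studies were processed apart, so these ratios compare spreads, not levels.

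The BXD and AXB/BXA lines, which share C57BL/6J as a parent, were compared. Medians of the globin sum were 237 CPM in 56 BXD strains, from 1.12 to 1754 CPM, and 74.6 CPM in 20 AXB/BXA strains, from 1.10 to 717 CPM, so the families overlapped over nearly their whole range. Of the 7 members 2 were called, both higher in BXD, against 11.6% of all 13794 genes tested, 6.62% higher and 5.02% lower: Slc4a1 at a log2 difference of 2.08 (SE 0.66, adjusted p 0.0271) and Hba-a2 at 1.94 (SE 0.59, adjusted p 0.0189). Hbb-bs at 1.49, Hbb-bt at 1.49 and Hba-a1 at 1.35 had adjusted p-values of 0.0690, 0.0747 and 0.112. Hba-a2 was not called with the copies summed, at 1.44 and an adjusted p of 0.0846, and neither it nor Slc4a1 was called in limma on TPM. With the substrains summed 5 members were called. Of 26 tested erythroid list genes 5 were called higher in BXD, among them the membrane skeleton genes Ank1 at 1.97 and Sptb at 1.12 and the transcription factor gene Nfe2 at 1.59, and 1 lower. Over 9 alternatives between 2 list genes, in limma on TPM, and 14, in DESeq2, were called. Myeloid precursor markers had median sums of 5.22 CPM among BXD and 1.53 CPM among AXB/BXA strains, and megakaryocyte and platelet markers of 9.46 and 5.43 CPM. Their part in the difference was not tested.

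Against the 31 other inbred strains, 1 of the 7 members was called in BXD, where 17.7% of all 13624 genes were called, 7.3% higher and 10.4% lower. Slc4a1 was lower in BXD at -1.995 (SE 0.55, adjusted p 0.00698). The medians were 1.07 CPM in BXD and 1.02 CPM in the other strains, and the ranges 0 to 48.6 and 0 to 204 CPM, so the medians lay close while the highest strains were other inbred ones. It was not called in limma on TPM, at -0.46 and an adjusted p of 0.380. Epor at -0.39 had an adjusted p of 0.0554, and 0.0403 without the library labelled BXD65/RwwJ. The 4 globin genes lay between -0.35 and -0.11 and were not called. Of 26 erythroid list genes 7 were called lower in BXD, among them Ank1 at -1.88 and Car1 at -1.43, and Fech higher at 0.12. Over 9 alternatives between 1 list gene, in limma on TPM, and 19, with no filter, were called. Of 8 proliferation markers 5 were called lower in BXD. The library labelled BXD19/TyJ did not decide these calls: without it Slc4a1 differed by 2.10 from AXB/BXA and by -1.98 from the other strains, both called.

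Over the 114 strains, 20 of the 21 pairs of members were related at a Benjamini-Hochberg adjusted permutation p under 0.05 over the 21 pairs, all positively. The share of other gene pairs that pass this threshold was not computed, so this count cannot be called particular to the members. Hbb-bs and Hba-a1, on different chromosomes, had an r of 0.993 (rho 0.995, adjusted p 1.31e-05, the smallest that 100000 resamples can give after adjustment). It was 0.993 without the 2 strains farthest from the median, and between 0.993 and 0.997 within BXD, AXB/BXA and other inbred strains. The copies share reads, and their r was 0.968 for beta and 0.894 for alpha globin (rho 0.971 and 0.891).

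Slc4a1 was related to the globin genes with r from 0.756 for Hba-a2 to 0.823 for Hbb-bs and rho from 0.8293 to 0.897. Alas2 was related to them with r from 0.541 to 0.600 (rho 0.550 to 0.596), a sign opposite to its change with diet. Within families the r of Alas2 with Hbb-bs was 0.689 in 56 BXD, 0.656 in 31 other inbred and 0.167 in 20 AXB/BXA strains. Epor was related less closely, with r from 0.304 to 0.329 (rho 0.297 to 0.323) and adjusted p from 0.000432 to 0.00118, and within AXB/BXA strains r with Hbb-bs was 0.0795. Slc4a1 and Epor had r 0.497 and rho 0.370, and r was 0.4004 without FVB/NJ and BTBR T<+> tf/J. Within families their r was 0.450 in 56 BXD, 0.661 in 31 other inbred and -0.0210 in 20 AXB/BXA strains. Alas2 and Epor were the pair that did not pass, with r 0.0198 (rho -0.0362, adjusted p 0.837 by permutation).

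**Figure D4:**
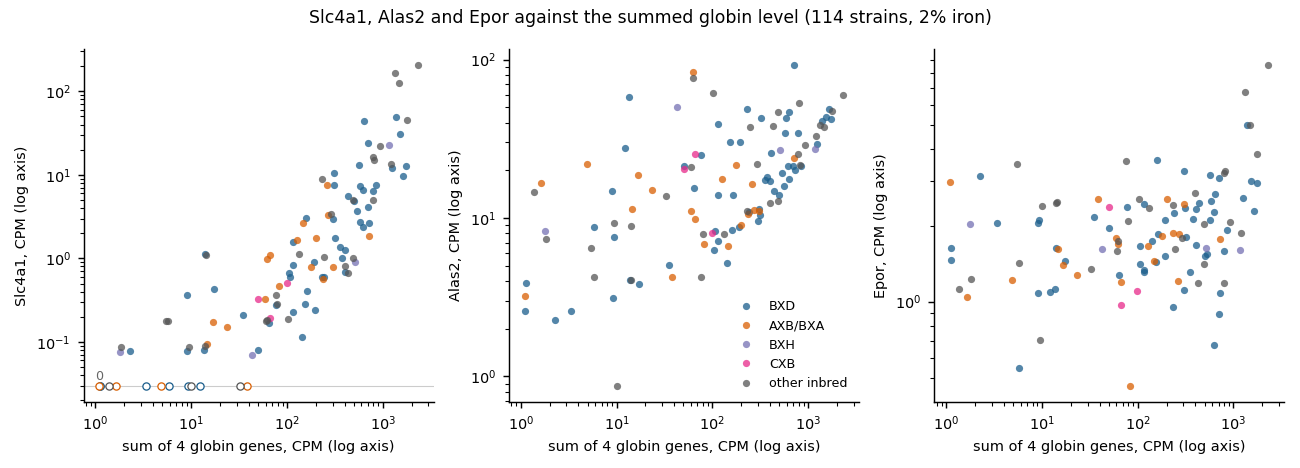
CPM of Slc4a1, Alas2 and Epor against the summed CPM of the 4 globin genes in 114 strains on 2% iron, on log axes, with colours for families and open circles for counts of 0. Slc4a1 varies widely among the strains highest in globin, up to 204 CPM, while Alas2 spans 0.875 to 91.98 CPM and scatters widely at low globin sums.

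The genes whose log2 CPM was most like each member over the 114 strains were sought among 15688 genes, as a description. For the globin sum the 5 most alike included Cdr2 (r 0.723), Bpgm (0.701), Trim10 (0.683) and Fam220a (0.682). Bpgm encodes the enzyme that makes the haemoglobin ligand bisphosphoglycerate. Bpgm and Trim10 are on the erythroid list. For Slc4a1 the 5 most alike included Trim10 (r 0.905) and Cdr2 (0.864). For Alas2 they were Nox4 (r 0.628), Mup7 (0.600), C8b (0.584), Cux1 (0.580) and Carmil1 (0.570). Mup7 and C8b are secreted products of hepatocytes, and none of the 5 is on the erythroid list. For Epor they were St3gal2 (r 0.673), Fam117a (0.651), Samd14 (0.636), Dnajc6 (0.630) and Gfi1b (0.628), the last a transcription factor gene on the erythroid list.

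The division of globin reads between copies differed by strain. In the panel library of C57BL/6J, 36.4% of alpha globin TPM was given to Hba-a2 and 26.7% of beta globin TPM to Hbb-bt. In DBA/2J the shares were 7.42% and 10.8%, and in C3H/HeJ 12.7% and 13.1%. By counts rather than TPM, Hba-a2 took 28.98% in C57BL/6J (Wilson 95% interval 26.04 to 32.1% of 845 counts) and 5.90% in DBA/2J (4.32 to 8.04% of 626 counts). The intervals cover counting error only. Strains carry different globin alleles, the quantification used 1 reference, and the shares are therefore a description of assigned reads.

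Among 45 BXD strains with at least 100 alpha globin counts, the Hba-a2 share of TPM fell between 5 and 15% in 22 strains, between 15 and 20% in 1, between 20 and 25% in 0 and between 25 and 45% in 22. The value of C57BL/6J lies in the upper range and that of DBA/2J in the lower. In 16 AXB/BXA strains it lay between 5 and 15% in 11 and above 25% in 5. The Hbb-bt share of TPM in 44 BXD strains ran from 9.83 to 31.1%. In the diet study, all of it C57BL/6J by label, the Hba-a2 share was 31.97 to 45.4% of TPM in the libraries with at least 100 counts other than 500 ppm replicate 2. In that library it was 9.89% of TPM, or 7.91% of counts (Wilson 95% interval 6.48 to 9.55%), while its Hbb-bt share of 30.2% of TPM lay within the 24.1 to 36.1% of the others.

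**Figure D5:**
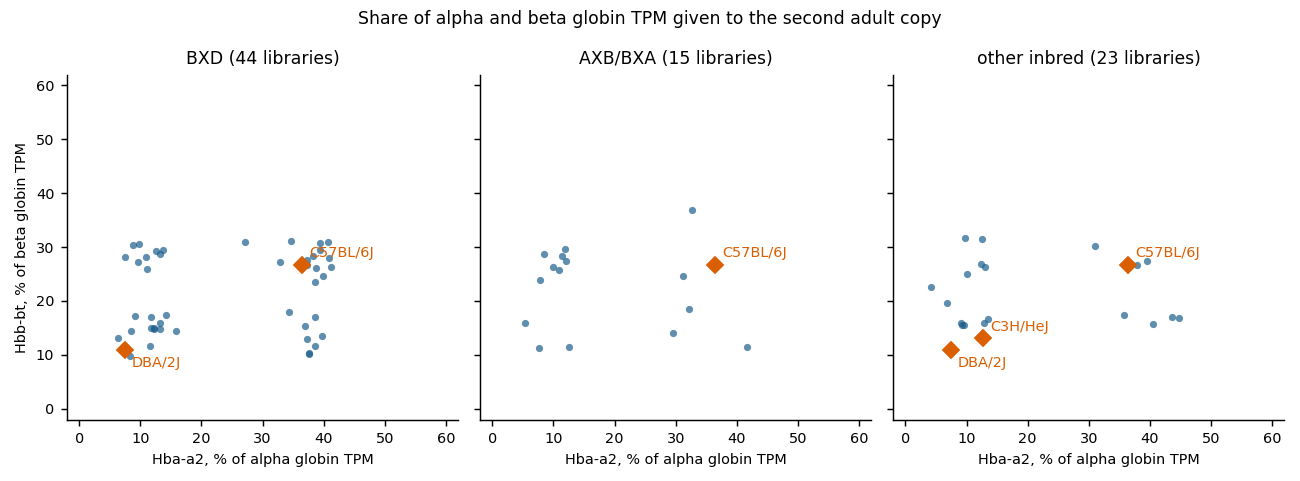
Share of alpha globin TPM given to Hba-a2 (x axis, percent) and of beta globin TPM given to Hbb-bt (y axis, percent) in panel libraries with at least 100 counts of each: 44 BXD, 15 AXB/BXA and 23 other inbred libraries. Orange diamonds mark parent strains, and that of C57BL/6J is repeated in each panel. BXD strains lie on both sides of an Hba-a2 share of 20 to 25%, where none falls.

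Epo was also uneven over the panel. It had 0 counts in 52 of 115 libraries, and was highest in NOR/LtJ with 106 counts (9.78 CPM) and C58/J with 82 counts (7.04 CPM).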

How the data were processed

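Liver mRNA of 15 diet-study mice and 115 panel libraries was analysed. Per the submitters' processing notes, the authors used kallisto 0.46 and mm10, and deposited expected counts and TPM per gene for each study. The 2 tables were processed apart and were tested apart. Of the count values, 26.5% (diet) and 27.4% (panel) were not whole, and all were rounded before testing. TMM factors, the filterByExpr filter, edgeR 4.0.16 quasi-likelihood tests and Benjamini-Hochberg adjustment over all genes tested were used (R 4.3.3), with calls at an adjusted p under 0.05. The diet fit held all 15 mice, and each panel fit the 2 families compared. Each mouse was 1 library, and p-values measure the spread between these mice. Alternatives used DESeq2 1.42.0, limma 3.58.1 on log2(TPM + 1) or log2(TPM + 0.1), other filters and factors, summed copies and omitted libraries. Leaving out the panel library labelled BXD19/TyJ was chosen after seeing the data. Relations used log2 CPM with a prior count of 2 and 100000 permutations (scipy 1.17.1). On simulated counts, the fit of 2% iron against 50 ppm recovered 39% of 2-fold and 96% of 4-fold changes over 13424 genes. The simulation gave every gene the same spread beyond counting error. In the real diet groups the SD of log2 CPM ran from 0.309 for Alas2 to 0.869 for Slc4a1 among the members. The median was 0.195 over 13410 genes, so these recovery rates need not hold for the members. The 7 members are always named. Genes of the other lists are named where called in 2% iron against 50 ppm, 500 ppm or chow or in a panel comparison, and the 5 genes most like a member by Pearson r are named. Some genes that this rule would name are not reported here. Members and lists were chosen with earlier results of these data known.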

Additional observations from a re-analysis of the deposited data

Results flagged for a closer look

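Among the 4 BXH strains on 2% iron, the highest strain stood apart from the others, relative to the range of the family, in 2 members. Slc4a1, the red cell anion exchanger gene, was 22.999 CPM in BXH2/TyJ, and the nearest strain had 0.900 CPM. BXH2/TyJ also had the highest globin sum of its family, 1173 CPM, and myeloid precursor markers in the family ran up to 93.6 CPM. Epor was 2.02 CPM in BXH10/TyJ, and the nearest strain had 1.64 CPM, a gap within the counting error of the 20 to 27 counts behind these values. BXH10/TyJ had the lowest globin sum of the family, 1.80 CPM. Groups of 4 to 10 were examined for 7 members in this family. The rule marks about 1 in 20 such groups by chance only if values follow a normal distribution. Slc4a1 was skewed over the 114 strains, with a median of 0.820 CPM and a highest value of 204 CPM, so that rate need not hold here.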

How the results depend on the processing

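Over 63 pairs of a member and a comparison, 1318 alternatives gave 1264 values on the same side of the threshold and in the same direction, 25 lost calls, 13 gained calls and 16 changes of sign. Members called in 2% iron against 500 ppm numbered 3 with only these 2 groups fitted and 3 to 6 when 1 mouse was left out, the 3 without 500 ppm replicate 1 or 3. With at least 10 counts required in every library only 4 members could be tested, and 4 were called in 2% iron against chow and in 2% iron with cellulose against 50 ppm. Leaving out 1 mouse gave 0 to 1 called in chow against 50 ppm, the 1 being Alas2 without 50 ppm replicate 1. DESeq2 called 1 in 2% iron with cellulose against 2% iron, and gave no adjusted p for Hbb-bt in any diet comparison. In BXD against AXB/BXA, 1 member was called with the globin copies summed, 0 in limma on log2(TPM + 1) and 5 with substrains summed. In BXD against other inbred strains, 0 were called in limma and 2 without the library labelled BXD65/RwwJ. The cause of these shifts was not tested. From expected counts the Hba-a2 share was 28.98% in C57BL/6J and 10.3% in C3H/HeJ, and the Hbb-bt share 15.1% in DBA/2J and 16.2% in C3H/HeJ. The 20 relations past the threshold numbered 20 in all 7 alternatives.

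Values that changed sign were not called in either setting. In 500 ppm against 50 ppm without 500 ppm replicate 2 they were -0.71 for Hbb-bs, -0.98 for Hbb-bt, -1.03 for Hba-a1 and -4.41 for Slc4a1. In that comparison Hba-a2 was 0.65 with copies summed and 0.0662 without 50 ppm replicate 2, Alas2 was 0.0521 without 50 ppm replicate 1, and Slc4a1 in 500 ppm against 50 ppm was -0.0366 in limma on log2(TPM + 1), with and without the filter, and -0.27 on log2(TPM + 0.1). In chow against 50 ppm Hbb-bs was 0.0195 without 50 ppm replicate 2. In 2% iron with cellulose against 2% iron, Slc4a1 was -0.24 without cellulose replicate 1, and Epo was -0.19 without 2% iron replicate 2 and -0.40 without cellulose replicate 2. In BXD against other inbred strains, limma on log2(TPM + 1) gave 0.12 for Hbb-bs, 0.28 for Hbb-bt, 0.0612 for Hba-a1 and 0.45 for Hba-a2. Leaving out 1 mouse at a time, the values in 500 ppm against 50 ppm reached 1.42 for Hbb-bs, 1.32 for Hbb-bt, 1.53 for Hba-a1 and 2.03 for Slc4a1 at the highest, and -0.61 for Hba-a2 and -0.46 for Alas2 at the lowest. Hbb-bs in chow against 50 ppm reached -0.91 at the lowest, and in 2% iron with cellulose against 2% iron the highest were 0.999 for Slc4a1 and 0.79 for Epo.

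No paired analysis was possible because the labels give no replicate numbers shared across groups. Slc4a1 and Epor rested on few counts in unloaded mice, so their fold changes are imprecise.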
